A study of Mus musculus with 4 samples.

Results

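The cluster of miR-132 and miR-212 encodes 4 mature strands, mmu-miR-132-3p, mmu-miR-132-5p, mmu-miR-212-3p and mmu-miR-212-5p, and they were followed here by name through the small RNA of MIN6 cells and of the exosomes these cells release. The 4 strands were among 1915 mature mouse miRNAs listed by the authors, of which 1101 had a count in at least 1 library. MIN6 is a mouse insulinoma line derived from pancreatic beta cells, and neither group received a treatment. The cells were kept in medium with exosome-depleted fetal bovine serum, and the exosomes were pelleted by ultracentrifugation from medium pooled over several flasks. There were 2 libraries of cells and 2 of exosomes, and the labels do not say whether the replicates came from separate cultures, so the p-values measure only the spread between these libraries.

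A miRNA is cut from a hairpin as a duplex of a 5p and a 3p strand, and the strand loaded into Argonaute represses messenger RNAs that pair with its seed, bases 2 to 8. miR-132 and miR-212 come from 1 primary transcript that the factor CREB activates after cAMP or calcium signals in neurons and endocrine cells. In beta cells, cAMP-raising hormones induce both, and miR-132-3p and miR-212-3p, the strands usually studied, have been linked to insulin secretion. No cAMP stimulus was applied in this series, so the values below describe the line in its culture medium and what it sheds. Its level of cAMP signalling was not reported.

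The 4 mature sequences are shown because the strands that share a seed, the 3p strands, are the ones whose order differed between cells and exosomes. The seed is in capitals.
miR-132-3p: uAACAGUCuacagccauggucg
miR-212-3p: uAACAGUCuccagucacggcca
miR-132-5p: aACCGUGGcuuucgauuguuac
miR-212-5p: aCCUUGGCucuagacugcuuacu

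The 3p strands share the seed AACAGUC, and no other of the 1461 mature sequences that could be read from the files has it. They are identical over their first 9 bases and at 17 of 22 positions in all. Counted from 1 at the 5′ end, and written with the base of miR-132-3p first, they differ by A10C, C14U, U17C, U20C and G22A, so a read of full length matches only 1 of them exactly. The seeds of the 5p strands, ACCGUGG and CCUUGGC, occur in no other of those 1461 sequences. None of the 4 sequences was found in 139565 GENCODE transcripts of genes other than miRNA genes.

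Both hairpins lie on the plus strand of chromosome 11 of GRCm38, Mir212 from 75173388 to 75173478 and Mir132 from 75173682 to 75173747, with 203 bases between them. GENCODE places both in an intron of the non-coding gene 1700016P03Rik, which runs in the same direction. The hairpins are printed to show where the counted strands sit, with the 5p and then the 3p strand in capitals. The sequences in the files matched those of RefSeq on GRCm38.p6 for both hairpins and all 4 strands.
mir-212: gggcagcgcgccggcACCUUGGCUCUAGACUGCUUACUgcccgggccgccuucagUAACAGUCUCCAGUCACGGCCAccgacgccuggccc
mir-132: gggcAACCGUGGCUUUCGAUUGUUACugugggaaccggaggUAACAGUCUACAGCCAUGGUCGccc

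Counts on mature miRNAs summed to between 2564068 and 2930217 in the cell libraries and to between 31409 and 47447 in the exosome libraries. A count of 3 was taken as the floor of detection and corresponds to 1.02 and 1.17 reads per 1000000 mature counts (RPM) in cells but to 63.2 and 95.5 RPM in exosomes. Depth followed the group and cannot be told apart from it. All intervals on shares are 95% Wilson intervals, which cover counting error only. The beta-cell label of the cells was met, with miR-375-3p at 9113 and 9881 RPM and miR-7a-5p at 26831 and 26158 RPM, and all 9 beta-cell and epithelial markers had counts in both cell libraries. Of 14 markers of blood, liver, vessel, connective tissue and muscle, 11 were tested, 9 were higher in exosomes and 0 were lower by edgeR's quasi-likelihood test, against 23.7% and 29.5% of all tested miRNAs. Of those 9, only miR-126a-3p and miR-143-3p had the counts in cells to pass edgeR's filter for low counts. The others passed it only through the exosome libraries, which favoured a call of higher. The summed level of the 14 markers was 159 and 177 RPM in cells against 11465 and 6113 RPM in exosomes. Single markers carried much of these sums. miR-192-5p, which did not pass the test, gave 108 and 121 RPM in cells, and miR-486a-5p gave 5058 and 923 RPM in exosomes. miR-133a-3p and miR-206-3p were at 0 in every library. The part of the markers in the results for miR-132 and miR-212 was not tested.

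In the cells the cluster was moderately expressed and its strands kept a fixed order. miR-132-3p had 713 counts in cell replicate 1 (243 RPM, interval 226 to 262) and 749 in replicate 2 (292 RPM, interval 272 to 314), which placed it 127th and 117th by count among the 905 and 873 miRNAs with a count. It was the most abundant of the 4, with 63.7% and 65.8% of their counts. miR-212-3p had 178 counts in each cell library, or 60.7 and 69.4 RPM, and held 15.9% and 15.6% of the cluster. miR-132-5p, the minor strand of its hairpin, had 165 and 144 counts, or 56.3 and 56.2 RPM. miR-212-5p was the least abundant, with 64 and 68 counts, or 21.8 and 26.5 RPM. miR-212-3p and miR-132-5p are neighbours in this order whose intervals overlapped in replicate 1 (52.5 to 70.3 against 48.3 to 65.6 RPM) and in replicate 2 (59.9 to 80.4 against 47.7 to 66.1 RPM). The other steps in the order were wider than the intervals.

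In the exosomes the order was different. miR-212-3p was the only strand above the floor, with 14 counts in exosome replicate 1 (295 RPM, interval 176 to 495) and 7 in replicate 2 (223 RPM, interval 108 to 460). miR-132-3p had 0 counts in replicate 1, where the floor is 63.2 RPM, and 2 in replicate 2 (63.7 RPM, interval 17.5 to 232). miR-132-5p had 2 counts in replicate 1 (42.2 RPM, interval 11.6 to 154) and 0 in replicate 2, where the floor is 95.5 RPM. miR-212-5p had 0 counts in both libraries. By RPM the groups did not overlap for any strand, with miR-212-3p higher in both exosome libraries and the other 3 strands lower, and the same held by counts scaled with TMM, edgeR's trimmed mean of M-values. Such separation was common: by RPM the exosomes lay wholly above in 41.3% and wholly below in 33.8% of the 438 tested miRNAs, and by TMM-scaled values in 33.3% and 51.8%. Both exosome libraries held 3 or fewer counts for 3 of the 4 strands, as for 31.3% of all tested miRNAs.

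**Figure D1:**
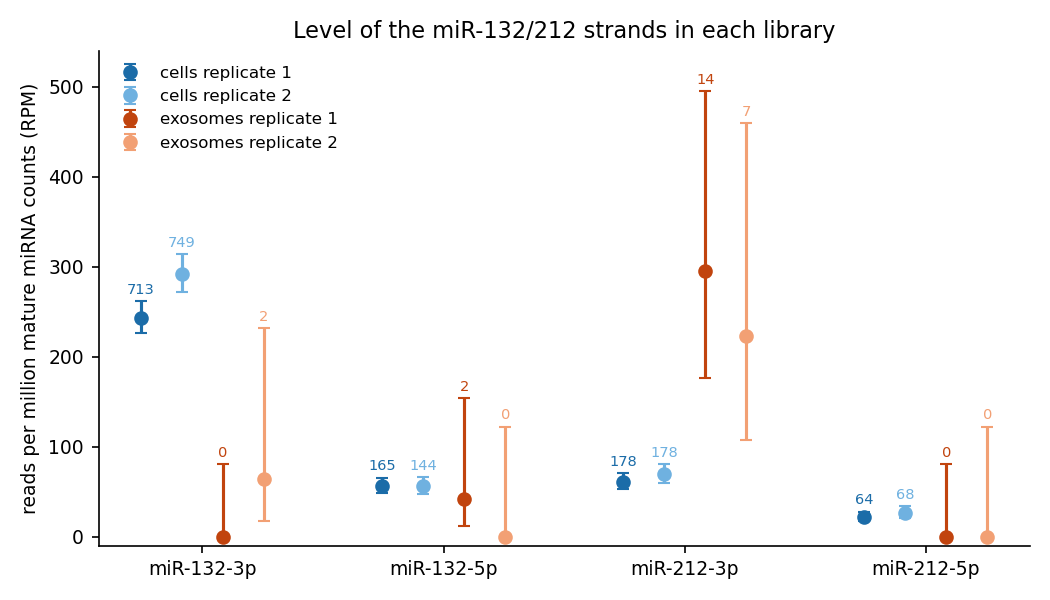
Level of each strand in RPM (vertical axis) in the 4 libraries, with 95% Wilson intervals as bars and the read count above each. miR-132-3p stands at 243 and 292 RPM in cells and at 0 and 63.7 RPM in exosomes, whereas miR-212-3p stands at 60.7 and 69.4 RPM in cells and at 295 and 223 RPM in exosomes.

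The 4 strands together took 382 RPM (interval 360 to 405) and 444 RPM (419 to 471) of the cell libraries, and 337 RPM (208 to 548) and 287 RPM (151 to 545) of the exosome libraries. By RPM the share of the library taken by the cluster thus differed by less than the counting error of the exosome libraries. This depended on the scaling. With TMM, the scaled level of miR-132-3p alone was 369 and 477 in cells. In exosomes that of miR-212-3p was 165 and 163, and no other strand was above 46.6. The cluster as a whole was therefore lower in exosomes with TMM, and no interval on that sum was computed. The makeup of the cluster differed by more than counting error. miR-212-3p made up 14 of 16 and 7 of 9 cluster counts in the exosomes.

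The contrast between the 3p strands does not depend on how libraries are scaled, since both are read in the same library. miR-212-3p took 20.0% of the 891 counts on both 3p strands in cell replicate 1 (interval 17.5 to 22.7) and 19.2% of 927 in replicate 2 (interval 16.8 to 21.9). In exosome replicate 1 it took 14 of 14 counts (100%, interval 78.5 to 100), and in replicate 2 it took 7 of 9 (77.8%, interval 45.3 to 93.7). Neither exosome interval reaches a cell interval. The log2 ratio of miR-132-3p to miR-212-3p, with 0.5 added to each count, was 2.03 ± 0.0502 in cells (SD, n = 2) and -3.22 ± 2.31 in exosomes (SD, n = 2), a difference of -5.26. Both exosome values lay below both cell values, and the two-sided exact permutation test gave p = 0.333, the smallest that 2 libraries against 2 allow.

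Reads on neither annotated strand were also examined, because the files assign them to neither strand. On mir-132 they were 0 of 878 and 0 of 893 reads in the cells, 4 of 6 in exosome replicate 1 and 0 of 2 in replicate 2. On mir-212 they were 2 of 244 and 0 of 246 reads in the cells and 0 of 14 and 0 of 7 in the exosomes. Over all hairpins, 10.9% and 9.58% of the hairpin reads in cells and 32.8% and 42.0% in exosomes lay on neither strand. The median over hairpins with at least 5 reads was lower, at 0% in both cell libraries and 0.36% and 10% in exosomes. With every read on each hairpin counted, mir-212 still took 70.0% of the 20 reads on the pair in exosome replicate 1 (interval 48.1 to 85.5) and 77.8% of 9 in replicate 2 (interval 45.3 to 93.7), against 21.7% of 1122 and 21.6% of 1139 in the cells. Where on the hairpin the 4 reads lie is not given in the files.

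**Figure D2:**
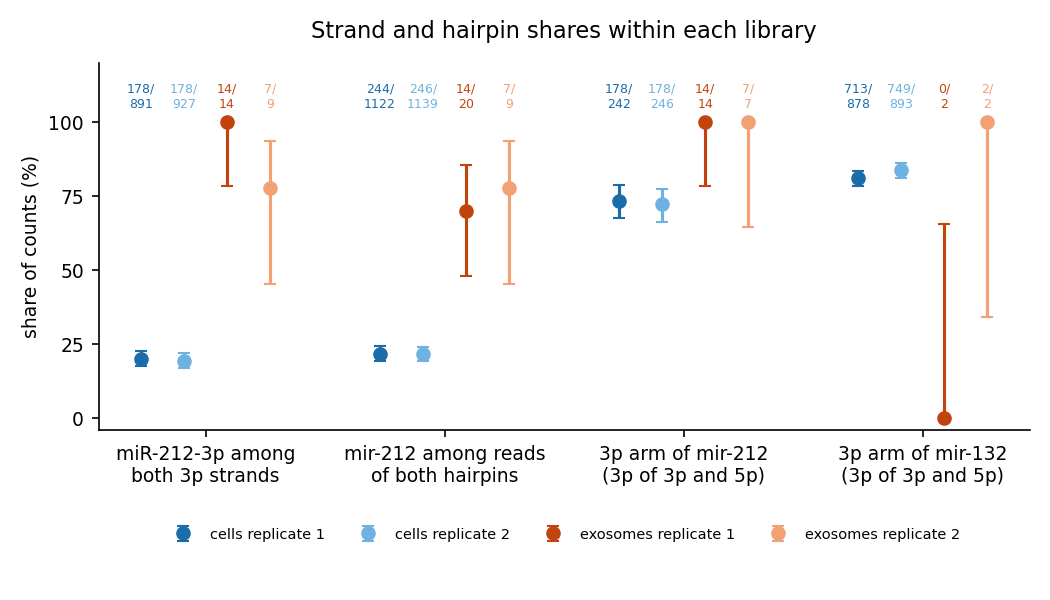
Shares of counts (vertical axis, %) within each library, with 95% Wilson intervals as bars and the counts printed above as part over whole. The share of miR-212-3p among both 3p strands is 20.0% and 19.2% in cells against 100% and 77.8% in exosomes, and the hairpin totals give the same order, while the arm share of mir-132 rests on 2 counts in each exosome library.

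The balance between the arms of each hairpin could be compared for mir-212 but hardly for mir-132. The 3p strand held 73.6% (interval 67.7 to 78.7) and 72.4% (66.5 to 77.6) of the mir-212 arm counts in cells, and 14 of 14 (78.5 to 100) and 7 of 7 (64.6 to 100) in exosomes. The log2 ratio of 3p to 5p was 1.43 ± 0.0614 in cells (SD, n = 2) and 4.38 ± 0.673 in exosomes (SD, n = 2), with p = 0.333 from the two-sided exact permutation test. That exosome value depends on the 0.5 added to a count of 0, and both exosome intervals overlap that of cell replicate 1. For mir-132 the 3p strand held 81.2% and 83.9% of the arm counts in cells, and 0 of 2 and 2 of 2 in exosomes, where the intervals (0 to 65.8 and 34.2 to 100) allow almost any balance.

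Exosomes were then compared with cells across all 438 miRNAs that passed edgeR's filter for low counts, by its quasi-likelihood test with TMM scaling and p-values adjusted over the whole table by the Benjamini-Hochberg method. All 4 strands passed the filter, but miR-132-3p, miR-132-5p and miR-212-5p passed it through the cells alone. At an adjusted p under 0.05, 2 of the 4 strands passed, a share close to the 53.2% of all tested miRNAs. Both were lower in exosomes, as were 29.5% of all, and 0 were higher, as were 23.7%. At an unadjusted p under 0.05, 3 strands were lower and 0 higher. With exactTest of edgeR and the threshold of the study, a fold of at least 2 and p under 0.05, 3 of 4 passed, against 65.3% of all. These 3 were lower, against 37.9%, and 0 were higher, against 27.4%. DESeq2 called 1 lower and 0 higher. In bulk RNA, fewer vesicles that carry a strand and fewer copies in each vesicle cannot be told apart.

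miR-132-3p was lower in exosomes by this test with TMM, as 1 of the strands that entered the test through their counts in cells. Its TMM-normalized level in counts per 1000000 (CPM) was 423 ± 76.5 in the 2 cell libraries (mean ± SD) and 23.3 ± 32.9 in the 2 exosome libraries, and the log2 fold change of exosomes over cells was fitted at -4.65 (standard error 1.08, edgeR quasi-likelihood adjusted p = 0.0287). With only 2 counts in the exosomes, the size is poorly fixed. The ratio of the summed counts was 26.7-fold lower in exosomes with TMM (exact 95% counting interval 7.37 to 220) and 10.5-fold lower by library size (2.90 to 86.7). At the RPM of the cells, about 12.7 and 8.41 counts would have fallen on miR-132-3p in the exosome libraries, where 0 and 2 were found. Scaled by library size alone the log2 fold change was -3.33 and the edgeR adjusted p of 0.0601 no longer passed.

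miR-212-3p did not pass the test with TMM scaling. Its normalized level averaged 103 ± 15.0 CPM in cells (SD, n = 2) and 164 ± 1.45 CPM in exosomes (SD, n = 2). The log2 fold change was 0.68 (standard error 0.36, 95% interval -0.30 to 1.65, edgeR quasi-likelihood adjusted p = 0.172). With library size alone it was 2.01 (edgeR adjusted p = 0.0253), with upper quartile scaling 1.38 (edgeR adjusted p = 0.0454), and without the filter -0.61 (edgeR adjusted p = 0.482), so its call depended on the scaling, while its fitted value was above 0 under all 4 scalings with the filter and below 0 without the filter. Without cell replicate 1 it was -0.13 (edgeR adjusted p = 0.953). With TMM the summed counts were 1.62-fold higher in exosomes, with an exact 95% counting interval of 0.988 to 2.51 that includes an unchanged level. By library size they were 4.11-fold higher (2.51 to 6.38). At the RPM of the cells 3.09 and 2.04 counts would have been found in place of 14 and 7. At the TMM-normalized level of the cells 8.72 and 4.41 counts would have been found.

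A scaling moves miRNAs with counts in both groups nearly alike, so the 3p strands are also given relative to the whole table. miR-212-5p, at 0 in both exosome libraries, hardly moved (-8.12 with TMM and -8.08 with library size alone). The median log2 fold change of the table was -0.75 with TMM and -0.83 with RLE (the scaling of DESeq2). It was -0.07 with upper quartile scaling and 0.61 with library size alone. miR-212-3p lay 1.42, 1.41, 1.45 and 1.41 above that median under these scalings, and miR-132-3p lay at -3.90, -3.92, -3.87 and -3.94 from it. Without the filter, where 1101 miRNAs were tested and the median was -1.67, the distances were 1.06 and -4.24. The distances depended on single libraries. Without exosome replicate 1 they were 3.57 for miR-212-3p and -0.28 for miR-132-3p, and without exosome replicate 2 they were 1.77 and -10.99. Without cell replicate 1 they were 0.99 and -4.20, and without cell replicate 2 they were 1.00 and -4.13. With TMM, 158 of the 438 miRNAs had a higher log2 fold change than miR-212-3p, and 50 had a lower one than miR-132-3p.

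**Figure D3:**
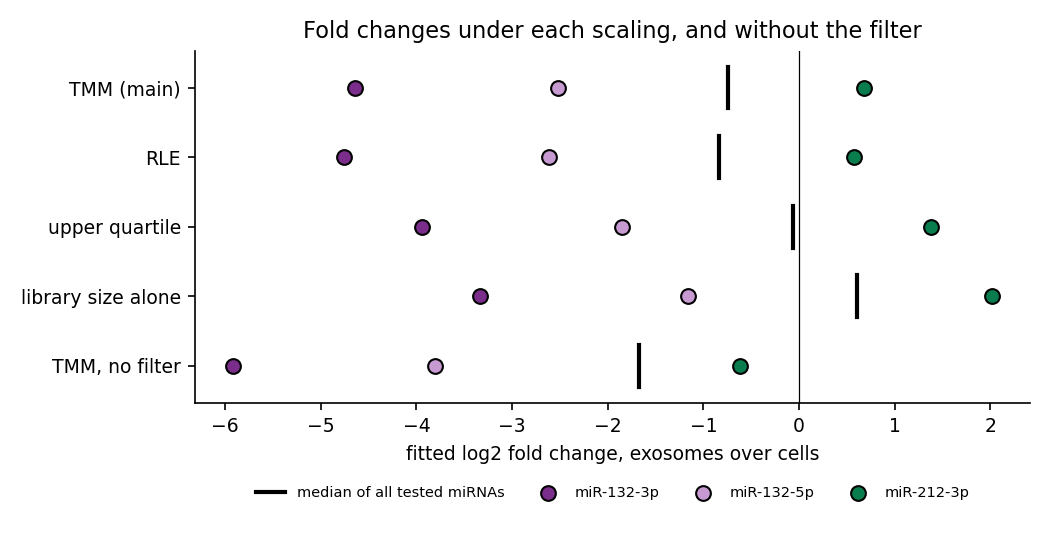
Fitted log2 fold change of exosomes over cells (horizontal axis) of 3 strands under each of 4 scalings and with TMM without the filter (rows), with the median of all tested miRNAs as a black bar; miR-212-5p, at 0 in both exosome libraries, is left out. A scaling moves all points and the median alike, and miR-212-3p runs from 0.57 to 2.01 over the 4 scalings and is at -0.61 without the filter, above the median in each row, whereas miR-132-3p lies below it in each.

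The 5p strands were too scarce for a firm statement. miR-132-5p averaged 88.6 ± 4.48 CPM in cells (SD, n = 2) and 11.8 ± 16.7 CPM in exosomes (SD, n = 2). Its log2 fold change was -2.52 (standard error 0.79, 95% interval -4.66 to -0.39, edgeR quasi-likelihood adjusted p = 0.0548). Its summed counts were 5.64-fold lower in exosomes with TMM (exact 95% counting interval 1.55 to 46.8), but 2.22-fold lower by library size, with an interval of 0.609 to 18.4 that includes an unchanged level. At the RPM of the cells 2.67 and 1.77 counts would have been found, and 2 and 0 were. For miR-212-5p the edgeR quasi-likelihood adjusted p was 0.0457, yet no fold can be given, since its 38.2 ± 7.21 CPM (SD, n = 2) in cells lies under the mean exosome floor of 52.6 CPM, and 1.15 and 0.759 counts would have been found at the RPM of the cells. At the TMM-normalized level of the cells 3.24 and 1.64 counts would have been found for miR-212-5p. Its adjusted p was 0.115 with library size alone, 0.0665 with upper quartile scaling (both edgeR) and 0.0529 with DESeq2. Whether the 5p strands are carried in exosomes was not detectable at this depth.

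**Figure D4:**
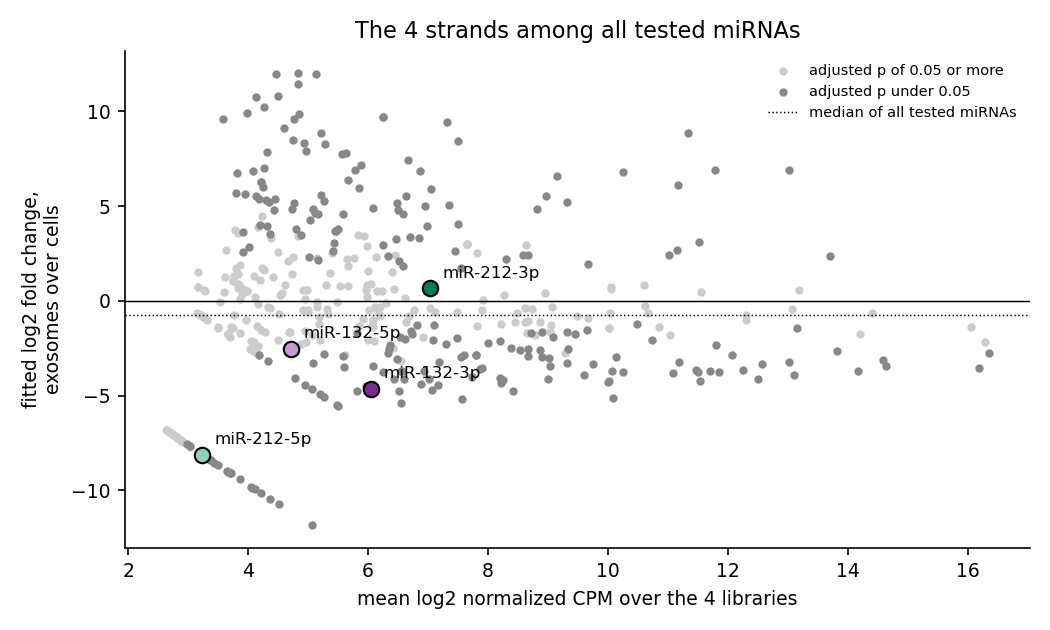
Fitted log2 fold change of exosomes over cells (vertical axis) against the mean log2 normalized CPM over the 4 libraries (horizontal axis) for the 438 tested miRNAs, with the 4 strands in colour and the median of -0.75 as a dotted line. miR-212-3p lies at 0.68, above the median, and miR-132-3p at -4.65 below it, while miR-212-5p sits on the line of points at the lower left made by miRNAs with no count in the exosomes.

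The miRNAs whose values over the 4 libraries came nearest to each strand were found by Euclidean distance of log2 TMM-normalized CPM. miR-674-3p was nearest to miR-132-3p (distance 0.31), with 708 and 602 counts in cells and 0 and 2 in exosomes, followed by miR-6516-3p (1.78) and miR-345-5p (2.73). For miR-212-3p the nearest were miR-107-3p (1.05), with 176 and 145 counts in cells and 9 and 4 in exosomes, miR-30c-1-3p (1.12) and miR-466q (1.27). Those of miR-132-5p were miR-670-5p, miR-8112 and miR-32-5p, at 0.23 to 0.65, and those of miR-212-5p were miR-3060-3p, let-7f-2-3p and miR-582-5p, at 0.12 to 0.37. The 3p strands had no neighbour in common among the nearest 3, which restates the difference in their counts given above and adds no further evidence.

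Other miRNAs linked to cAMP, neuronal activity or secretion give the setting of these values. Of 10 miRNAs listed for cAMP or activity, 8 were tested, and 2 were higher and 1 was lower in exosomes at an adjusted p under 0.05 (edgeR quasi-likelihood), against 23.7% and 29.5% of all tested miRNAs. Both that were higher, miR-134-5p and miR-381-3p, passed the filter for low counts only through their exosome libraries, which favoured a call in that direction. The median log2 fold change of the tested members was 0.35, against -0.75 for the whole table. That median was -1.70 without the filter, 1.71 with library size alone, and -0.08 without exosome replicate 1. The median of the whole table in these settings was -1.67, 0.61 and -2.53. miR-134-5p, a brain-enriched miRNA of dendrites, had 35 and 12 counts in cells and 47 and 8 in exosomes (log2 fold change 4.87, edgeR adjusted p = 0.0139). miR-381-3p, from the same imprinted cluster, had 14 and 1 counts in cells and 14 and 2 in exosomes (4.78, edgeR adjusted p = 0.0314). miR-134-5p did not pass without either cell library (edgeR adjusted p = 0.0531 and 0.114), and miR-381-3p did not pass without cell replicate 2 (0.163) or exosome replicate 1 (0.245).

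miR-375-3p, the most studied islet miRNA, was the 1 that was lower, at -1.43 (edgeR adjusted p = 0.0475), and with library size alone it was -0.09 (edgeR adjusted p = 0.900). miR-124-3p, a neuronal miRNA also found in beta cells, had a log2 fold change of 0.75 (95% interval -0.58 to 2.08, edgeR adjusted p = 0.245) and stood near miR-212-3p. miR-184-3p was at -0.76 and miR-338-3p at -0.99, neither past the test. miR-138-5p was at -0.05 (95% interval -1.58 to 1.48) and miR-329-3p at 1.31 (-1.77 to 4.38). miR-9-5p and miR-9-3p had 10 or fewer counts in every library and were not tested.

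Of 19 miRNAs listed for insulin secretion and beta-cell function, 15 were tested, 7 were lower and 0 higher in exosomes, and 8 did not pass (edgeR quasi-likelihood). Of all tested miRNAs 29.5% were lower and 23.7% higher. At an unadjusted p under 0.05, 8 were lower and 0 higher, and DESeq2 and exactTest also called 0 higher. Their median log2 fold change was -1.64 against -0.75 for the whole table, and -0.33 against 0.61 with library size alone, where 2 were lower. Without either cell library 4 were lower, and without exosome replicate 2 there were 12. Those that fell with TMM were miR-148a-3p (-4.68), miR-29c-3p (-4.09), miR-7a-5p (-3.94), miR-29b-3p (-3.28), miR-29a-3p (-3.21), miR-26a-5p (-1.64) and miR-375-3p. miR-7a-5p, which restrains insulin secretion, had 78620 and 67072 counts in cells and 394 and 32 in exosomes. miR-132-3p, at -4.65, lay close to miR-148a-3p, the lowest of these, and miR-212-3p lay above all but miR-124-3p. miR-148a-3p had 394 and 309 counts in cells and 1 and 0 in exosomes. Like miR-132-3p, it passed the filter for low counts through the cells alone, which favoured a call of lower. Both miRNAs were under the floor in each exosome library, so the closeness of their values is poorly fixed.

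**Figure D5:**
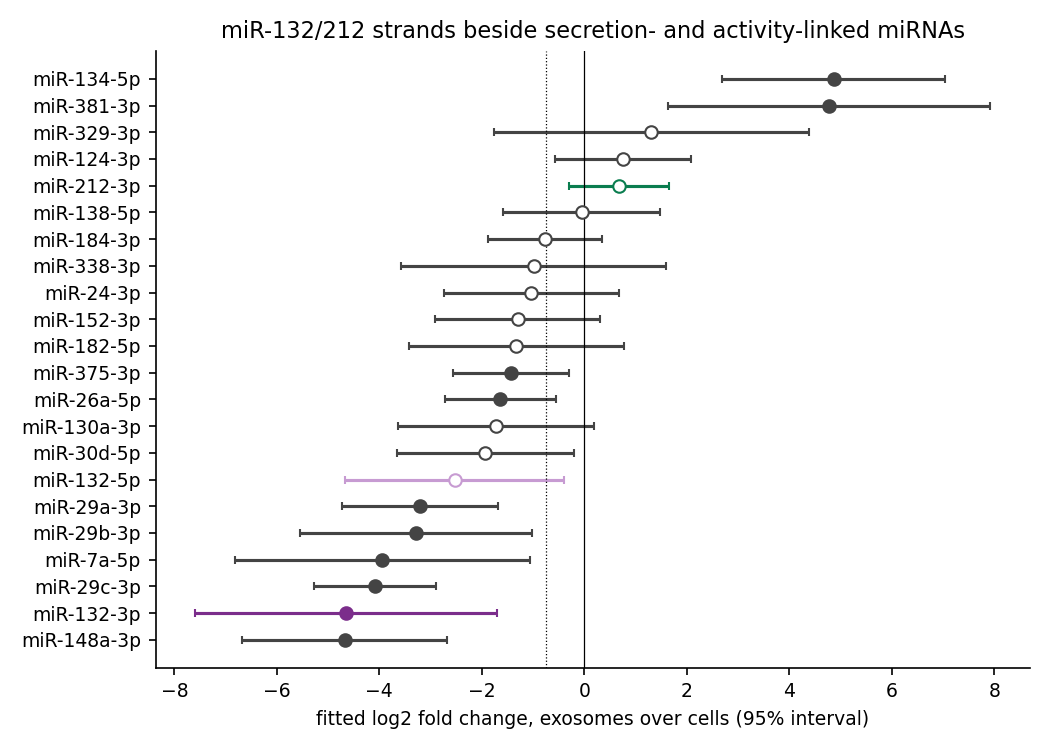
Fitted log2 fold change of exosomes over cells with 95% intervals (horizontal axis) for 3 strands of the cluster (coloured) and the tested miRNAs of both lists (grey), ordered by value; filled points passed an adjusted p of 0.05 and the dotted line is the median of all tested miRNAs. miR-132-3p is at -4.65, beside miR-148a-3p at -4.68, and miR-212-3p is at 0.68, beside miR-124-3p at 0.75. miR-132-3p and miR-148a-3p were under the floor of detection in each exosome library.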

How the data were processed

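Small RNA of 2 MIN6 cell and 2 MIN6-derived exosome samples was made into libraries with the SMARTer smRNA-Seq kit. The authors trimmed adapters, removed rRNA reads, aligned the rest to the reference genome (mm10 per the submitters' processing notes), miRBase and RNAcentral, and deposited counts per mature miRNA as whole reads. The RPM values deposited by the authors equal each count over the sum of its library. For each hairpin the authors also deposited read counts in total, on each arm and on neither arm.

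The members and lists were chosen with earlier results of these data known. Named are the 4 strands, the miRNAs of both lists, the 3 tested miRNAs nearest to each strand and any miRNA that shares a seed. The 2 marker lists were used as a check. Groups came from the sample titles.

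miRNAs were filtered with filterByExpr (minimum count 10) and tested with glmQLFTest of edgeR 4.0.16 under TMM. The adjusted threshold was 0.05, and standard errors came from dividing each log2 fold change by the root of its F statistic. DESeq2 1.42.0, R 4.3.3, Python 3.11.15, scipy 1.17.1 and RNAfold 2.7.2 were also used. Fits were tested on simulated data. Fold ratios of summed counts carry exact conditional intervals. The alternatives were other scalings, filters and tests, the replicate number as a block, abundant miRNAs left out, each library left out, and other pseudocounts. Hairpin totals were added after seeing the data.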

Additional observations from a re-analysis of the deposited data

How the results depend on the processing

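The depth of the exosome libraries limits every value of the cluster, since 25 counts in all fell on its strands there. The ratio of miR-132-3p to miR-212-3p kept its direction under every alternative run, from -6.49 to -3.22 on the log2 scale (the last with all hairpin reads counted, chosen after seeing the data), and from -6.89 to -3.62 without each library in turn. miR-132-3p kept its direction in all alternatives that tested it and its call in all but library size alone (-3.33), and ranged from -11.97, without exosome replicate 2, to -2.81, without exosome replicate 1. miR-132-5p passed with RLE (-2.62), without a filter (-3.80), with exactTest (-2.54) and without the 5 most abundant miRNAs of each group (-2.68), and without each exosome library it was -9.70 and -1.80, past the threshold in both. miR-212-3p passed with library size alone (2.01) and upper quartile scaling (1.38), turned to -0.61 without a filter, and ran from -0.13, without cell replicate 1, to 1.04. miR-212-5p lost its call with library size alone (-8.08), upper quartile scaling (-8.09) and DESeq2 (-3.76), and without exosome replicate 1 (range -8.50 to -8.49). Both 5p strands were filtered out without either cell library, and no strand had 10 counts in every library. Where a library was left out, the lone library of its group was assumed to vary like the other group. The cause of these changes was not tested.

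Over all tested miRNAs 104 were higher and 129 lower. With at least 10 counts in every library 37 were higher and 40 lower among 100 tested, with library size alone 30 were lower (82.0% of the calls were then higher, against 44.6% with TMM, 57.6% with upper quartile scaling and 33.99% without a filter), and without a filter 202 were lower. Leaving out each library gave 46 to 115 higher and 56 to 162 lower, the fewest without the cell libraries (51 and 70 without replicate 1, 46 and 56 without replicate 2). Of the secretion list, 1 was higher without a filter and 0 to 1 without each library. The number lower was 2 with library size alone, 13 without a filter, 3 with at least 10 counts in every library, and 4 to 12 without each library. Of the cAMP and activity list, 0 were higher with at least 10 counts in every library and 0 to 3 without each library (1 without cell replicate 1 or exosome replicate 1, 0 without cell replicate 2). The number lower was 0 with RLE, library size alone, upper quartile scaling, the replicate block and at least 10 counts in every library, 2 without a filter, and 0 to 1 without each library (0 without either cell library).

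The difference of the mir-212 arm ratio was 2.96, and 2.04 or 5.21 with 1 or 0.1 added to each count. That of mir-132 was -2.24 and ran from -4.56 to 0.0805, the last without exosome replicate 1. The deviations of same-numbered cell and exosome libraries from their group means had a correlation of 0.19, and the labels do not say that a number marks a shared culture. With the replicate number as a block, 117 miRNAs were higher and 109 lower, and no call of the 4 strands changed, while miR-26a-5p and miR-375-3p lost theirs (miR-132-3p -4.66, miR-132-5p -2.55, miR-212-3p 0.69 and miR-212-5p -8.06).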

Other observations

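The hairpins of the cluster differ in length and base content, with 91 bases and 69.2% G and C in mir-212 and 66 bases and 57.6% in mir-132. Their lowest predicted folding energies were -41.5 and -37.2 kcal/mol with RNAfold. The 4-letter runs GGAG and CCCU, which have been described as exosome motifs, were searched on the given strand of the mature sequences. They occur in 13.8% and 11.5% of the 1461 sequences in the files, and in 0 of the 4 strands of the cluster.

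The summed level of the 19 secretion miRNAs was 54816 and 54242 RPM in cells and 38443 and 23751 RPM in exosomes, and that of the 9 beta-cell and epithelial markers was 45646 and 46291 RPM in cells and 22362 and 9138 RPM in exosomes. Of those 9, 8 were tested, and 6 were lower and 0 higher in exosomes by the edgeR quasi-likelihood test, against 29.5% and 23.7% of all tested miRNAs. Among those lower, miR-200a-3p had 783 and 678 counts in cells and 2 and 0 in exosomes. It passed the filter for low counts through the cells alone, which favoured a call of lower.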
